A study of Mus musculus with 8 samples.

Results

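The genes described here are 9 markers of classical and alternative macrophage activation, Nos2, Acod1, Socs1, Socs3, Cd38, Cd80, Cd86, Retnla, and Egr2, in macrophages sorted by the IgG receptor FCGR4. They were chosen by name, as the rows of the count file whose Ensembl identifiers carry those symbols. They are 9 of a set of 10 among 54146 genes, and all 9 passed the filter of at least 10 counts in at least 4 libraries, which kept 17095 genes. Macrophages came from the epididymal white adipose tissue (eWAT) of 4 C57Bl6 mice that had eaten a high-fat diet, in the study's methods a high-fat high-cholesterol diet, ad libitum for 24 weeks and then 30% less food for 2 weeks, a short-term caloric restriction (stCR). All 8 libraries share this diet and restriction, and mice without stCR are not analysed here. CD45+ CD11b+ cells that lacked CD3, B220, Ly6G, and SiglecF were split into FCGR4+ and FCGR4- cells, and 1 RNA-Seq library was made of each from each mouse. The gate defines macrophages by surface proteins only, and CD11b is also carried by other myeloid cells. The age of the mice is not given in the sources used here. The comparison asks how the activation genes differ between cells with and without FCGR4 in the same mouse.

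Macrophages exposed to IFN-γ or bacterial products take on a classical state, in which the nitric oxide synthase encoded by Nos2 and the itaconate-forming enzyme encoded by Acod1 are induced. IL-4 and IL-13, acting through STAT6, induce an alternative state marked by Retnla, a secreted protein of the resistin family. Macrophages of adipose tissue often carry genes of both programs, and cells of each kind are found in the tissue of obese mice.

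Total counts were between 35992794 and 66856746 per library. The sort was visible in the RNA. Fcgr4 was at 139 to 236 CPM (counts scaled to library size with edgeR's TMM factors) in FCGR4+ libraries and at 48.5 to 82.9 CPM in FCGR4- libraries, a log2 fold change of 1.61 (SE 0.173, adjusted P = 0.0162 in the edgeR quasi-likelihood test, blocked on mouse). At an adjusted P value under 0.1, 217 of the 17095 genes passed in that test (1.27% of those tested), with 14 higher in FCGR4+ cells (0.0819%) and 203 lower (1.19%). The macrophage markers, among them Adgre1, Cd68, and Csf1r, summed to 22917 to 47615 CPM in FCGR4+ libraries and 19580 to 44548 CPM in FCGR4- libraries. Markers of other cells were at lower summed levels in FCGR4+ libraries in 4 of 4 mice, for neutrophils (124 to 554 CPM against 399 to 2470 CPM), mast cells and basophils (14.5 to 30.5 CPM against 392 to 2162 CPM), fibroblasts (146 to 293 CPM against 364 to 1572 CPM), and dendritic cells (10.3 to 22.9 CPM against 53.1 to 123 CPM). Not every list was lower in each mouse. Summed adipocyte markers were at 124 to 195 CPM in FCGR4+ libraries and 82.0 to 160 CPM in FCGR4- libraries, lower in 1 of 4 mice. Monocyte markers were lower in 2 of 4 mice, and eosinophil and endothelial markers in 3 of 4. In bulk libraries, fewer cells of a type and less RNA per cell cannot be told apart.

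**Figure D1:**
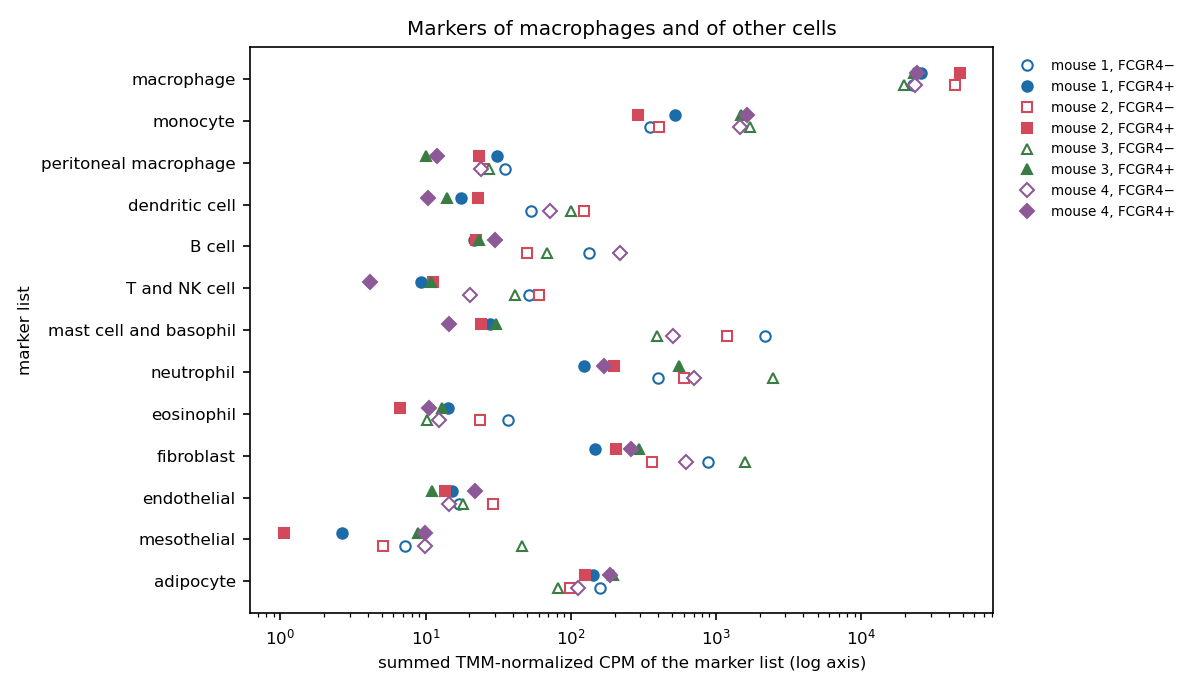
Summed TMM-normalized CPM (log axis) of 13 marker lists, with 1 point per library, open for FCGR4- and filled for FCGR4+, colored by mouse. Macrophage markers lie near each other in both populations, whereas mast cell and basophil markers lie at 14.5 to 30.5 in FCGR4+ libraries and at 392 to 2162 in FCGR4- libraries.

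None of the 9 activation genes passed the threshold in edgeR's paired test, against 1.27% of all tested genes. Retnla, Egr2, and Cd80, all at a lower level in FCGR4+ cells, had an unadjusted P value under 0.05 (3 of 9 genes, against 9.77% of all tested genes). The same 3 genes passed as lower at the same threshold with DESeq2's paired model, the tool and design of the study. With it, 4.87% of tested genes were lower and 1.12% higher, and no activation gene was higher. Of the 9 log2 fold changes, 8 were negative and 1, that of Cd38, was positive, with a median of -0.66. Over all tested genes, 50.3% were negative and the median was -0.0025. The populations did not overlap for 1 gene, Egr2 (3.91% of all tested genes), and 2 genes, Egr2 and Cd80, were lower in FCGR4+ cells in 4 of 4 mice (10.8% of all tested genes). No gene of the 9 was higher in 4 of 4 mice.

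**Figure D2:**
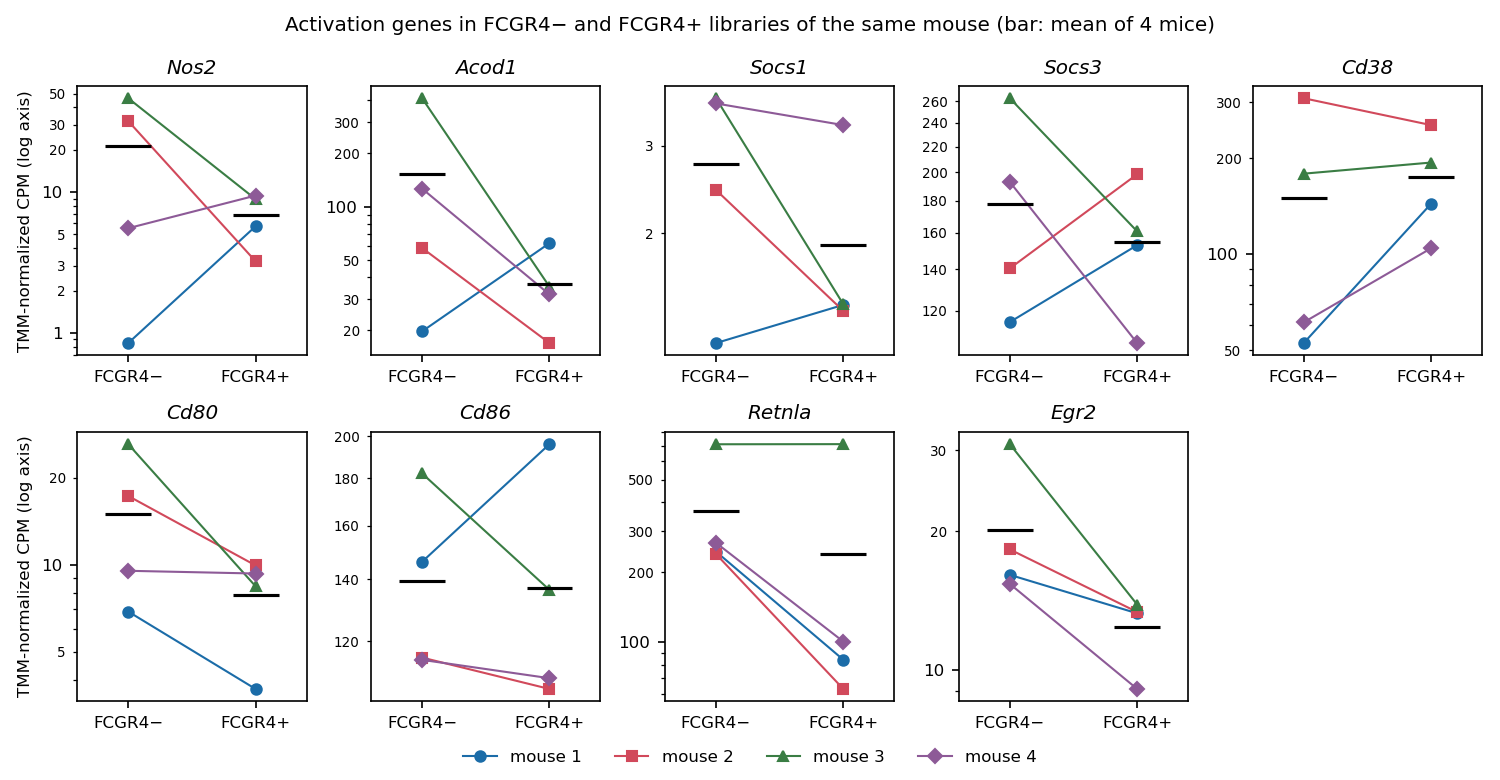
TMM-normalized CPM (log axis, scaled for each gene) of the 9 activation genes in FCGR4- and FCGR4+ libraries, with a line joining the libraries of 1 mouse and a bar at the mean of 4 mice. Egr2 and Cd80 slope down in 4 of 4 mice, Retnla in 3 of 4, and Nos2 lines cross.

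Nos2 (ENSMUSG00000020826, mm10 chr11:78920787-78960254, plus strand) encodes the inducible nitric oxide synthase, which makes nitric oxide from arginine. FCGR4+ libraries of mice 1 to 4 held 5.72, 3.22, 8.91, and 9.44 CPM. FCGR4- libraries held 0.846, 32.0, 46.4, and 5.54 CPM, from below to above all FCGR4+ values. The spread within FCGR4- libraries was 54.8-fold, from 55 counts in mouse 1 to 2570 counts in mouse 3, and within FCGR4+ libraries 2.93-fold. Nos2 was higher in FCGR4+ cells in mice 1 and 4 and lower in mice 2 and 3, and its log2 fold change of -0.67 had a 95% interval of -3.24 to 1.91 (SE 1.09, adjusted P = 0.841 in edgeR's test). The fitted value was 0.43 without mouse 2 and 0.21 without mouse 3. The SD of its log2 ratio over the 4 mice was 2.78, and 1.48% of tested genes had a larger one.

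Acod1 (ENSMUSG00000022126, mm10 chr14:103046977-103056573, plus strand) encodes the mitochondrial enzyme that makes itaconate from cis-aconitate. It was at 62.3, 17.0, 35.4, and 31.9 CPM in the FCGR4+ libraries of mice 1 to 4 and at 19.8, 58.5, 410.3, and 127 CPM in the FCGR4- libraries. It was lower in FCGR4+ cells in mice 2, 3, and 4 and higher in mouse 1, and the populations overlapped. Its log2 fold change, -1.57, was the lowest of the 9 but had a wide interval, -3.46 to 0.32 (SE 0.804, adjusted P = 0.565 in edgeR's test, adjusted P = 0.454 with DESeq2). It was -2.43 without mouse 1 and -0.83 without mouse 3. In the fit without mouse 3, the log2 fold change of Retnla, -1.64, was below that of Acod1. The FCGR4- library of mouse 3, which held the highest Acod1 and Nos2, also held the highest sum of neutrophil markers, 2470 CPM against 399 to 703 CPM in the other FCGR4- libraries. The gate was set for Ly6G- cells, and how fully it removed neutrophils was not tested. The part of these markers in the Acod1 and Nos2 values was not tested either.

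Among genes linked to IL-4, Retnla (ENSMUSG00000061100, mm10 chr16:48842551-48844461, plus strand) had the smallest unadjusted P value of the 9. The protein, RELM-α or FIZZ1, is secreted. Retnla was at 84.1, 63.0, 712, and 101 CPM in the FCGR4+ libraries of mice 1 to 4, and at 246, 239.7, 711, and 268 CPM in the FCGR4- libraries. Mouse 3 was high in both populations, with a log2 ratio of 0.0018, whereas the other mice had log2 ratios of -1.55, -1.93, and -1.41. The fit gave a log2 fold change of -1.23 (2.35-fold lower, SE 0.308, interval -1.96 to -0.51, adjusted P = 0.198 in edgeR's test, unadjusted P = 0.00494). DESeq2 gave nearly the same fold change, -1.24, with an adjusted P value of 6.4e-04. Without mouse 3 the log2 fold change was -1.64 and passed in edgeR's test (adjusted P = 0.0160). Without mouse 1, 2, or 4 it was -1.12, -0.96, and -1.17 and did not pass (adjusted P = 0.367, 0.420, and 0.527 in edgeR's test).

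Egr2 (ENSMUSG00000037868, mm10 chr10:67535475-67542188, plus strand) encodes a zinc finger transcription factor that IL-4 induces in macrophages. Its 4 FCGR4+ values, 13.3, 13.4, 13.9, and 9.11 CPM in mice 1 to 4, all lay below its 4 FCGR4- values, 16.1, 18.3, 30.9, and 15.4 CPM. The difference was small, with a log2 fold change of -0.66 (1.58-fold lower, SE 0.192, interval -1.11 to -0.21). It did not pass in edgeR's test (adjusted P = 0.283) and passed with DESeq2 (adjusted P = 0.0529). Leaving out each mouse in turn gave -0.79 to -0.51.

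The RefSeq promoter windows (GRCm38.p6, 250 bases before to 50 after a transcript start) were searched for letters that STAT and EGR factors are known to bind. Windows were found for 7 of the 9 genes (11 windows). Nos2 and Cd86 had no entry. TTC and GAA spaced by 4 bases, the form preferred by STAT6, occurred for Retnla alone among the 7 (6.95% of all 32851 windows), and TTC and GAA spaced by 3 bases, the form used by STAT3 and other STATs, for Socs3 alone (8.30% of all windows). Both motifs read the same on either strand. The EGR letters GCGTGGGCG, searched on both strands, were in none of these windows (0.612% of all windows). The sites are shown for the STAT-linked genes Retnla and Socs3 with 10 bases on either side, 5′ to 3′ on the strand of the gene, with the match in capitals.
Retnla chr16:48842454-48842483, plus strand: agaatcataaTTCACAAGAAattgctaaac
Socs3 chr11:117969502-117969530, minus strand: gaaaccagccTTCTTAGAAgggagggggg
The Retnla match began 145 bases before the RefSeq start and lay upstream of the deposited gene. The Socs3 match began 154 bases before the RefSeq start and lay in an intron of the deposited gene, which starts farther upstream. A match of letters is a description and does not show binding.

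The SOCS proteins bind cytokine receptors or JAK kinases and damp their signal. Socs1 (ENSMUSG00000038037, mm10 chr16:10782240-10785536, minus strand), induced by IFN-γ, was the scarcest gene of the 9, with 67 to 249 counts per library. It was at 1.43, 1.39, 1.44, and 3.30 CPM in FCGR4+ libraries of mice 1 to 4 and at 1.20, 2.44, 3.74, and 3.65 CPM in FCGR4- libraries. It was lower in FCGR4+ cells in 3 of 4 mice, with a log2 fold change of -0.52 (SE 0.372, interval -1.39 to 0.36, adjusted P = 0.656 in edgeR's test). Without mouse 3 it was -0.24. Socs3 (ENSMUSG00000053113, mm10 chr11:117966079-117970047, minus strand), which acts on receptors of the IL-6 family, is also induced by them. Its values were 153, 199, 161, and 107 CPM in FCGR4+ libraries and 115, 140.4, 263, and 193 CPM in FCGR4- libraries. Mice 1 and 2 had more Socs3 in FCGR4+ cells and mice 3 and 4 less, and the log2 fold change was -0.16 (SE 0.266, interval -0.79 to 0.46, adjusted P = 0.839 in edgeR's test).

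Among the surface proteins, Cd38 (ENSMUSG00000029084, mm10 chr5:43868553-43912375, plus strand) encodes an ectoenzyme that breaks down NAD and is used as a marker of classical activation in mouse. It was at 144, 254, 194, and 104 CPM in the FCGR4+ libraries of mice 1 to 4 and at 52.7, 308, 179, and 61.1 CPM in the FCGR4- libraries. Mouse 2 was highest in both populations. In 3 of 4 mice the FCGR4+ library held more Cd38, and the log2 fold change was 0.51 (SE 0.279, interval -0.15 to 1.17, adjusted P = 0.585 in edgeR's test). It was 0.20 without mouse 1 and 0.81 without mouse 2.

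Cd80 and Cd86 encode the B7 ligands that bind CD28 and CTLA-4 on T cells. Cd80 (ENSMUSG00000075122, mm10 chr16:38455561-38496335, plus strand) was at 3.71, 9.94, 8.42, and 9.32 CPM in FCGR4+ libraries and at 6.88, 17.3, 26.2, and 9.52 CPM in FCGR4- libraries of mice 1 to 4. It was lower in FCGR4+ cells in each mouse, but barely so in mouse 4 (log2 ratio -0.031). Its log2 fold change was -0.84 (1.79-fold lower, SE 0.269, interval -1.47 to -0.21), which did not pass in edgeR's test (adjusted P = 0.338) and passed with DESeq2 (adjusted P = 0.0769). The dendritic cell markers, which were also at a lower summed level in FCGR4+ cells of each mouse, included 5 of 10 that passed as lower in edgeR's test. Their part in the Cd80 values was not tested. Cd86 (ENSMUSG00000022901, mm10 chr16:36603869-36666081, minus strand) was at 196, 106, 136, and 109 CPM in FCGR4+ libraries and at 146, 115, 182, and 115 CPM in FCGR4- libraries. It had the narrowest interval of the 9, -0.43 to 0.34 on the log2 scale around a fold change of -0.044 (SE 0.165, adjusted P = 0.938 in edgeR's test). The ratio of RPKM values (CPM per kilobase of gene length) of Cd86 to Cd80 was 53.5, 10.8, 16.4, and 11.9 in FCGR4+ libraries and 21.5, 6.73, 7.05, and 12.2 in FCGR4- libraries, higher in FCGR4+ cells in 3 of 4 mice (P = 0.25, two-sided exact sign-flip permutation test, which cannot pass 0.05 with 4 mice, looked at after the values had been seen).

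**Figure D3:**
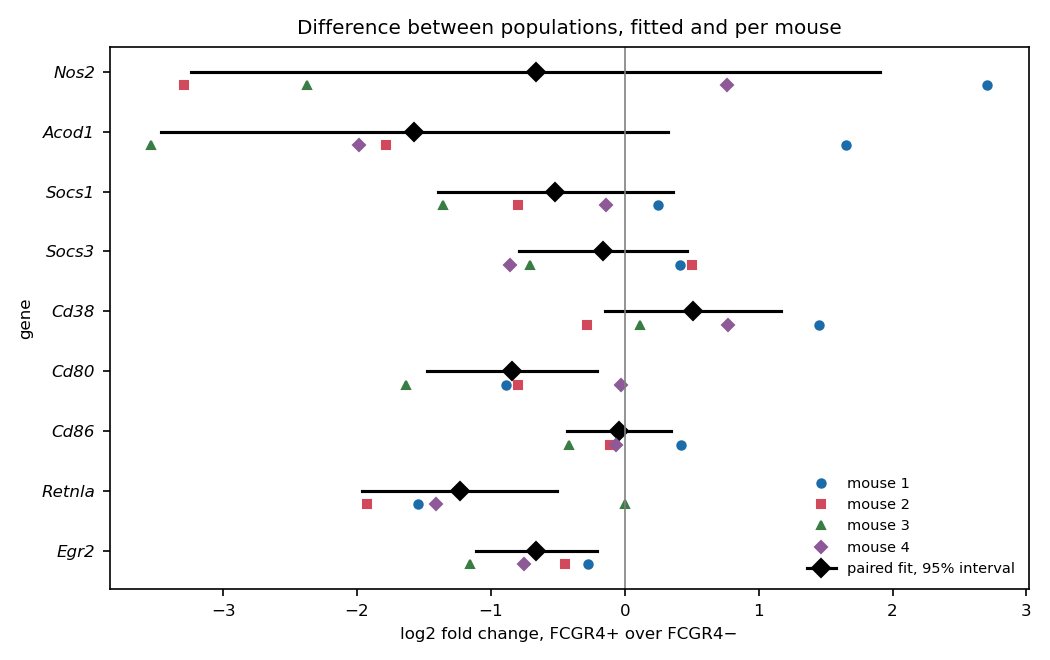
Log2 fold change of FCGR4+ over FCGR4- cells for the 9 activation genes, with the paired fit and its 95% interval as a black diamond and line and the ratio in each mouse as a colored symbol. The intervals of Retnla, Egr2, and Cd80 lie below 0, and those of the other genes include 0.

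Some of the activation genes differed widely between mice. The range of the 4 mouse means (log2 scale, both populations averaged) exceeded the size of the log2 fold change for 9 of 9 genes, near the share over all tested genes (89.2%), so this count sets them apart in no way. That range was 9.05-fold for Nos2, and 4.26% of all tested genes had a wider one. It was 5.79-fold for Retnla (7.93% wider) and 3.82-fold for Acod1 (14.01% wider). Cd86 and Socs3 were at the narrow end, with 1.53-fold and 1.55-fold. In all, 7 of the 9 had a wider range than the median tested gene, which had a range of 0.80 on the log2 scale.

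The FCGR4- library of mouse 3 stood out. It held the highest of the 8 values for 6 of the 9 genes, Nos2, Acod1, Egr2, Socs1, Socs3, and Cd80, against 15.6% of all tested genes, a count made after the values had been seen. It also held the highest summed markers of neutrophils, of fibroblasts (1572 CPM against 364 to 884 CPM in the other FCGR4- libraries), and of mesothelial cells (46.4 CPM against 5.09 to 9.96 CPM). The gate was set for CD45+ CD11b+ Ly6G- cells, and how fully it removed these cell types was not tested. Summed monocyte markers, whose cells would pass the gate, were also highest in this library, at 1721 CPM against 352 to 1462 CPM in the other FCGR4- libraries and 289 to 1632 CPM in FCGR4+ libraries. The part of all these markers in the activation genes was not tested. Without mouse 3, 1 of the 9 genes, Retnla, passed in edgeR's test, among 162 genes that passed in that fit (9 higher, 153 lower). The animal IDs of mice 1 and 2 begin with S395 and those of mice 3 and 4 with S491, and what the prefix marks is not given. No activation gene, and 0 of the 17095 tested genes, differed in fold change between the prefixes at an adjusted P value under 0.1 (edgeR's interaction test, added after the values had been seen).

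**Figure D4:**
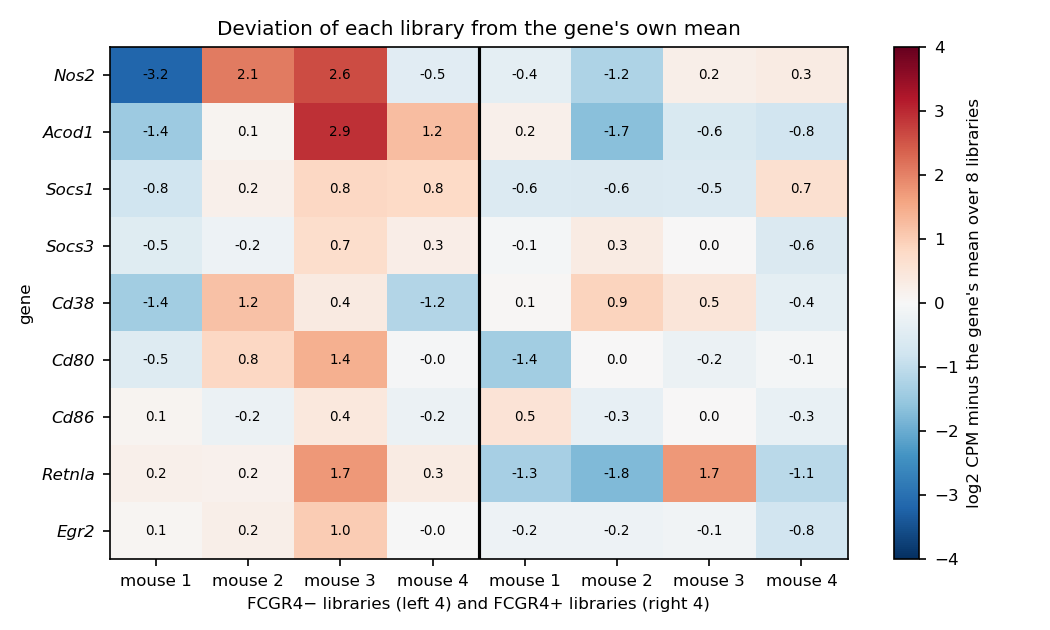
Log2 CPM of each activation gene minus its mean over the 8 libraries, as color and number, with FCGR4- libraries on the left and FCGR4+ libraries on the right. The FCGR4- library of mouse 3 is above the mean for all 9 genes, and Retnla is high in both libraries of mouse 3.

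Per gene length, Retnla was the most abundant of the 9. In FCGR4+ libraries its mean level was 400.5 ± 526 RPKM (SD, n = 4). Socs3 (53.5 ± 13.1 RPKM), Cd38 (44.8 ± 16.6 RPKM), and Cd86 (37.4 ± 11.4 RPKM) followed, with ranges that overlapped each other, and the Socs3 range, 36.9 to 68.7 RPKM, lay below that of Retnla. Acod1 was next at 13.97 ± 7.19 RPKM and Egr2 at 3.65 ± 0.652 RPKM, each below the range of the gene above it. Cd80 (2.12 ± 0.764 RPKM), Nos2 (1.55 ± 0.660 RPKM), and Socs1 (0.650 ± 0.323 RPKM) were lowest, and each overlapped its neighbor. The order in FCGR4- libraries also put Retnla first, at 611 ± 384 RPKM. Acod1 came after Socs3 (61.5 ± 22.6 RPKM), at 58.6 ± 67.3 RPKM, with a range of 7.53 to 156 RPKM that overlapped those of Socs3 and Cd38. The FCGR4- order then ran through Cd38 (38.6 ± 30.9 RPKM), Cd86 (38.1 ± 8.77 RPKM), Egr2 (5.93 ± 2.14 RPKM), Nos2 (4.80 ± 4.91 RPKM), Cd80 (4.04 ± 2.34 RPKM), and Socs1 (0.948 ± 0.411 RPKM). In that order, only Socs3, Egr2, and Socs1 lay below the range of the gene just above them.

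The wider pathways were read from lists that hold other genes of each program. Of 28 tested classical activation genes, 1 rose and 2 fell in FCGR4+ cells in edgeR's test, against 0.0819% higher and 1.19% lower over all tested genes, and the list's median log2 fold change was -0.14. Cxcl9, an IFN-γ-induced chemokine, rose in 4 of 4 mice (log2 fold change 1.57, SE 0.184, adjusted P = 0.0214), from 2.44 to 8.51 CPM in FCGR4- libraries to 7.40 to 31.6 CPM in FCGR4+ libraries. Il1b, the inflammatory cytokine, fell (-1.61, SE 0.274, adjusted P = 0.0666), as did Ccr7, a chemokine receptor that is also in the dendritic cell list (-3.54, SE 0.400, adjusted P = 0.0195). Il1b passed in 1 of the 4 fits that left out a mouse, Cxcl9 in 3, and Ccr7 in 4.

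Of 29 tested alternative activation genes, none rose and 3 fell, against the same shares of 0.0819% and 1.19%, with a median of -0.55. These were the chemokine Ccl22 (log2 fold change -1.89, SE 0.313, adjusted P = 0.0636), the lectin Cd209a (-2.60, SE 0.319, adjusted P = 0.0252), and the hemoglobin scavenger receptor Cd163 (-0.96, SE 0.155, adjusted P = 0.0602). Ccl22 and Cd209a are also in the dendritic cell list. Ccl22 passed in 2 of the 4 fits that left out a mouse, Cd209a in 4, and Cd163 in 0. DESeq2 called 3 classical genes higher and 3 lower, and 3 alternative genes higher and 8 lower, against 1.12% higher and 4.87% lower over all tested genes. The classical genes it called higher were Cxcl9, Gbp2 (log2 fold change 0.90 in DESeq2), and Marco (2.83). The alternative genes it called higher were the mannose receptor gene Mrc1 (0.67, adjusted P = 0.0153 with DESeq2), the nuclear receptor gene Pparg (0.64, adjusted P = 0.0399), and the cytokine gene Il10 (0.95, adjusted P = 8.3e-04). In edgeR's test their adjusted P values were 0.258, 0.262, and 0.126. Except for Cxcl9, these genes were chosen after their values were seen. In the RELM family, to which Retnla belongs, Retnlg fell (-3.29, SE 0.381, adjusted P = 0.0213). Retnlg is a neutrophil gene and is also in the neutrophil list, of whose 9 tested genes 6 fell.

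No gene passed in edgeR's test among 24 cytokine receptors, JAKs, and STATs, 17 SOCS genes and other brakes, 5 EGR and NAB genes, 14 costimulators and their T cell receptors, 18 genes of arginine, nitric oxide, and polyamine metabolism, 16 of itaconate and succinate metabolism, and 13 of NAD metabolism, against 1.27% of all tested genes. In these lists DESeq2 called no gene higher and, besides Egr2 and Cd80, called Stat4, Stat5a, Socs2, Cish, Ctla4, Icos, Pdcd1, and Ddah1 lower, against 1.12% higher and 4.87% lower over all tested genes. Stat4, Ctla4, Icos, and Pdcd1 are known for their roles in T and NK cells. The summed T and NK cell markers were at 4.15 to 11.2 CPM in FCGR4+ libraries and at 20.3 to 60.3 CPM in FCGR4- libraries, lower in 4 of 4 mice, with 7 of 9 tested markers called lower in edgeR's test and none at 3 counts or fewer in every library. The sort kept CD3- cells, and the part of these markers in the values of those genes was not tested. The medians of the 7 lists were between -0.54 and 0.028. Those with the smallest unadjusted P values next to the activation genes included Cish, a SOCS relative induced through STAT5 (log2 fold change -1.65, SE 0.396, adjusted P = 0.178 in edgeR's test). Gch1, whose enzyme makes the tetrahydrobiopterin that Nos2 needs, was at -0.39 (SE 0.159, adjusted P = 0.494), and Sat1, a polyamine acetyltransferase gene, at 0.28 (SE 0.135, adjusted P = 0.551). Stat4 was at -1.76 (SE 0.454, adjusted P = 0.214) and Stat5a at -0.62 (SE 0.162, adjusted P = 0.220). Socs2 was at -1.46 (SE 0.438, adjusted P = 0.303), Egr1 at -0.48 (SE 0.204, adjusted P = 0.511), and Pdcd1, which encodes PD-1, at -3.74 (SE 0.869, adjusted P = 0.167). Suclg2 was at 0.31 (SE 0.152, adjusted P = 0.554), Sugct at -1.13 (SE 0.560, adjusted P = 0.558), and Nnmt at -0.96 (SE 0.406, adjusted P = 0.510).

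**Figure D5:**
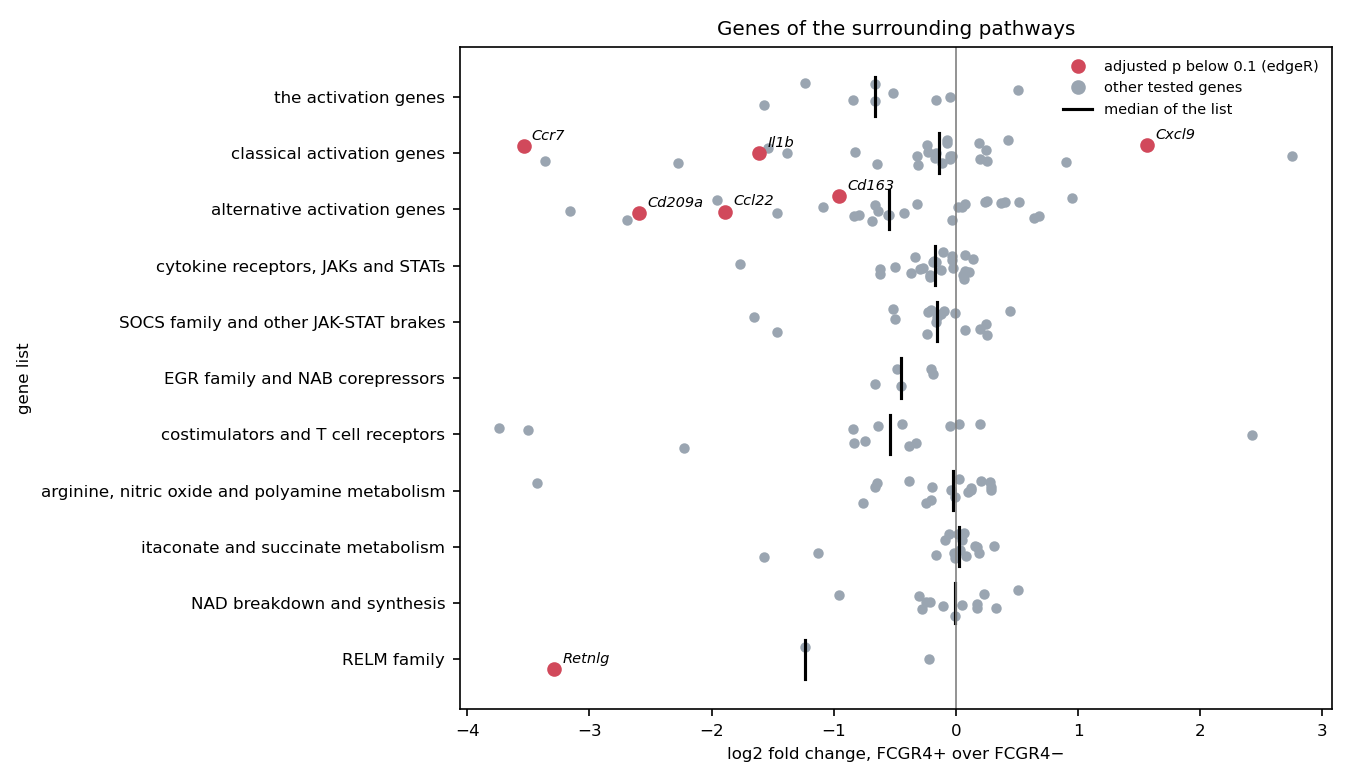
Log2 fold change of FCGR4+ over FCGR4- cells for each tested gene of the 9 activation genes and the surrounding lists, with genes past an adjusted P value of 0.1 in edgeR's test in red and named, and the list median as a bar. Cxcl9 at 1.57 is the 1 red point above 0, and the 9 activation genes hold no red point.

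For each activation gene, the gene with the most similar course over the 8 libraries was found among all tested genes, by the root mean square difference of centered log2 CPM. Cd86 was closest to Rnf217 (0.0957), Socs3 to Mex3d (0.132), and Egr2 to Prdm1 (0.155). Cd80 was closest to Tuba4a (0.229), Socs1 to Rasgrp4 (0.233), and Cd38 to Bach2os (0.320). Acod1 was closest to Mirt1 (0.346) and Retnla to Ccl19 (0.373). Nos2, which varied most, had the least similar nearest gene, Ak3l2-ps (0.616), which was scarce, at a mean of 0.316 CPM. All of these courses share the same 8 libraries and their cell content, so likeness is given as a description.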

How the data were processed

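RNA-Seq was done by the authors on FCGR4+ and FCGR4- eWAT macrophages of 4 mice (8 libraries), sorted into TRIzol. The authors mapped read pairs to mm10 with STAR and deposited raw counts per gene made with featureCounts 1.6.3 on GENCODE M18. A pair with several mapping places added a count to each, without regard to strand. No exon of the 9 genes overlaps another gene. Population and mouse came from the labels, and 0 per-sample columns were left out.

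A gene entered the test with 10 or more counts in 4 or more libraries. The test was that of edgeR 4.0.16 (R 4.3.3; TMM, quasi-likelihood test with legacy=TRUE, mouse as a block, Benjamini-Hochberg over 17095 genes, threshold 0.1). The model follows the study's paired design, but the study fitted that design with DESeq2, which is an alternative here. RPKM used the deposited gene length, log2 CPM a prior count of 2, and each SE was derived from the fold change and its F statistic. At these depths 3 counts equal 0.0440 to 0.0883 CPM, which covers counting error only. TMM factors were 0.937 to 1.11 and mitochondrial counts 4.13% to 9.88%.

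Libraries with the same number come from the same mouse in the labels, and their deviations from the population means correlated at 0.291 to 0.428, against a median of -0.0615 for different mice. No libraries of a population were duplicates (chi-square per degree of freedom at least 83.6). In the paired fits, P values weigh the difference between populations against how much it varied over these 4 mice. Level differences between mice are taken up by the block.

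The alternatives tried were edgeR's newer fit, DESeq2 1.42.0 (paired), a fit with no replicate block, RLE factors, library size alone, other filters, a threshold of 0.05, leaving out each mouse, and each ID prefix alone. Fits on fewer libraries kept genes with 10 counts in at least as many libraries as 1 population had. The interaction test, the ratios of genes, and the count of highest libraries were added after seeing the data. The scripts were tested on simulated data. The named genes are the activation genes, each list gene past the threshold or, where a list had none, its 2 genes with the smallest P values, the nearest gene to each activation gene, Fcgr4, and markers that moved with a gene. The activation genes and lists were chosen with earlier results of these data known. Promoter sequences are from RefSeq (GRCm38.p6). Of the set, 1 activation gene, and some genes of the lists, are not reported here and stay out of the counts by list.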

Additional observations from a re-analysis of the deposited data

Results flagged for a closer look

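In 4 of 27 groups of 4 values examined, 1 library lay far from the other 3 by Dixon's criterion, where chance gives about 1 in 20, or 1.35. Retnla in FCGR4- cells was at a log2 CPM of 9.47 in mouse 3 and at 7.91 to 8.07 in the other mice, a gap of 0.898 of the whole range. Egr2 in FCGR4+ cells was at 3.19 in mouse 4 and at 3.74 to 3.80 in the others (0.896 of the range). Socs1 in FCGR4+ cells was at 1.74 in mouse 4 and at 0.52 to 0.56 in the others (0.964 of the range). Cd80 in FCGR4+ cells was at 1.91 in mouse 1 and at 3.08 to 3.32 in the others (0.831 of the range).

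Socs3 was higher in FCGR4+ cells in both mice with the ID prefix S395 and lower in both with S491. The log2 fold change of S491 minus that of S395 was -1.24 (adjusted P = 0.303 in edgeR's interaction test), so the difference did not pass.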

How the results depend on the processing

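Over 126 alternative fits of the 9 activation genes, 109 kept direction and side of the threshold, 9 kept direction and passed it, and 8 turned direction. None of the turned values passed. The cause of each change was not tested. Acod1, Retnla, Cd38, Egr2, Socs1, and Cd80 kept their direction in all 14 alternatives each. With 4 mice, the intervals of Nos2 and Acod1 were wide and included 0.

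With no replicate block, 48 genes passed (1 higher, 47 lower), with none in the activation genes or the lists (0 higher and 0 lower, against 1 and 6 with the block). DESeq2 passed Retnla (-1.24), Egr2 (-0.66), and Cd80 (-0.85), 3 activation genes among 1024 genes (192 higher, 832 lower), and 6 list genes as higher and 23 as lower. The newer fit passed Retnla (-1.23), 1 activation gene, and 629 genes (57 higher, 572 lower). With no filter, Acod1 (-1.55), Retnla (-1.22), and Cd80 (-0.82) passed, 3 activation genes among 1054 genes (159 higher, 895 lower). A threshold of 0.05 left 76 genes (2 higher, 74 lower) and library size alone 8 higher genes. In mice of S395 alone, Socs3 was at 0.45, Cd86 at 0.15, Retnla passed at -1.74 (1 activation gene), and 115 genes passed (7 higher, 108 lower). In mice of S491 alone, Retnla was at -0.72 and did not pass (adjusted P = 0.332 in edgeR's test), and 72 genes passed (61 lower).

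Leaving out each mouse gave -1.74 to 0.43 for Nos2 (0.21 without mouse 3), -0.36 to 0.072 for Socs3 (0.012 without mouse 3), -0.20 to 0.070 for Cd86 (0.011 without mouse 2), -2.43 to -0.83 for Acod1, 0.20 to 0.81 for Cd38, -0.77 to -0.24 for Socs1, and -1.64 to -0.96 for Retnla. Acod1 was at -0.055 in mice of S395 alone and at -2.78 in mice of S491 alone. The count of passing genes was then 78 to 162 (2 to 9 higher, 76 to 153 lower), with 78 without mouse 1, and that of activation genes 0 to 1.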
